A study of Mus musculus with 3 samples.

Results

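The Reg genes encode small secreted proteins built around a C-type lectin fold, and the mouse family analysed here has 7 members: Reg1, Reg2, Reg3a, Reg3b, Reg3d, Reg3g and Reg4. They were taken by gene symbol from the deposited expression files, where all 7 are among 24346 listed genes. RNA had been sequenced from mouse epithelium of the large intestine and of the lower and the upper small intestine, 1 library for each region. Opened and washed intestines were shaken in EDTA, and the shed cells were collected without any sort that the labels describe. The labels give no age, sex, number of animals or treatment. They give no strain for the large and lower libraries, whereas the upper library carries a strain entry naming the CRC mouse model MC38. If that entry holds, region and model cannot be told apart in comparisons with the upper library. With 1 library per region no difference below has a replicate check, and no p-value was computed.

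Reg proteins are best known as antibacterial lectins of the gut surface and as growth-associated proteins of the pancreas. In the intestine, Reg3g and Reg3b are made by Paneth cells and enterocytes, are released into the lumen, and help to keep bacteria away from the epithelium. Their transcription depends on bacterial signals relayed through MyD88 and on interleukin-22, which acts through STAT3 in epithelial cells. Reg1 and Reg2 are abundant in the exocrine pancreas, and Reg4 marks secretory and endocrine cells of the gut.

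Levels are in FPKM, which scales a fragment count by transcript length and by library size, so genes can be compared per length within a library. Values marked large, lower and upper belong to the libraries of those regions. The summed FPKM of the libraries was 521651 (large), 646262 (lower) and 693218 (upper). The spacing of low values implied about 9130000 (large), 12000000 (lower) and 7970000 (upper) counted reads, which holds only where no later scaling was applied across libraries. Colonocyte markers summed to 8692 (large), 271 (lower) and 264 (upper) FPKM, and 7 of 7 in the large library and 4 of 7 in each of the others were at 1 FPKM or more. Small intestinal enterocyte markers summed to 96.5 (large), 8144 (lower) and 22351 (upper) FPKM, and 7 of 9 in the large and 9 of 9 in each of the other libraries were at 1 FPKM or more. Ceacam20, listed for colonocytes, was not highest in the large library, at 39.7 (large), 56.1 (lower) and 31.1 (upper) FPKM. Red cell, endothelial, smooth muscle and fibroblast marker lists each summed to at most 13.4 FPKM in any library. T cell markers summed to 5.41 (large), 66.9 (lower) and 75.6 (upper) FPKM, and myeloid markers to 2.88 (large), 23.7 (lower) and 12.1 (upper) FPKM. B and plasma cell markers summed to 0.097 (large), 29.4 (lower) and 29.4 (upper) FPKM, mostly from Jchain in both small intestinal libraries. Because these are bulk samples, fewer cells of a type and less RNA per cell cannot be told apart in any value given here.

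The summed level of the family was highest in the lower small intestine, and the sum there was nearly all Reg3b and Reg3g. Summed over the 7 genes, it reached 1386 (large), 35069 (lower) and 14270 (upper) FPKM, which was 0.266% (large), 5.43% (lower) and 2.06% (upper) of all FPKM in the library. Reg3b and Reg3g together gave 80.6% (large), 99.7% (lower) and 90.0% (upper) of these sums. Reg1, Reg2, Reg3a and Reg4 had more in the upper than in the lower library, and Reg4 had most in the large. Reg3b was the most abundant of all 24346 genes in the lower library and Reg3g ranked 4 there. In the upper library they ranked 5 and 13, and in the large library 81 and 694. The highest value of the upper library was that of a short RNA, Mir1892, at 49507 FPKM, which is part of its summed FPKM. With short RNAs left out, Reg3b and Reg3g ranked 74 and 672 (large), 1 and 3 (lower) and 3 and 11 (upper). The members spanned a wide range within each epithelium. In the large library 5 members reached 1 FPKM and 3 reached 10 FPKM, in the lower library 6 and 4, and in the upper library 6 and 5.

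**Figure D1:**
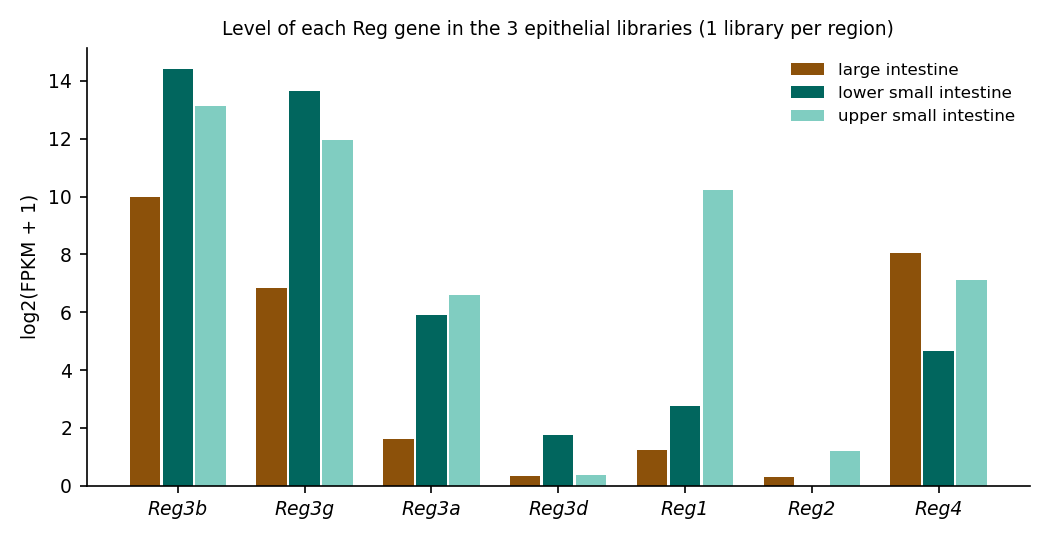
Bars give log2(FPKM + 1) of the 7 Reg genes in the 1 library of each region. Reg3b and Reg3g are highest in the lower small intestine, Reg1 stands out in the upper small intestine at 1199 FPKM, and Reg4 is highest in the large intestine at 265 FPKM.

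Genes with 1 FPKM or more in either of the 2 libraries compared counted as measured. A gene was called higher or lower at a difference of at least 1 in log2(FPKM + 1), a 2-fold ratio of FPKM + 1. In the large intestine against the lower small intestine, 6 Reg genes were measured, 5 were called lower and 1 higher. Among all 12376 measured genes, 10.5% were called lower and 9.75% higher, 20.2% in either direction. In the large intestine against the upper small intestine, 6 were measured, 4 were called lower and none higher, where 11.7% of 12350 genes were called lower and 11.2% higher, or 22.9% in either direction. In the lower against the upper small intestine all 7 were measured, 3 were called higher and 3 lower, where 2.92% of 11941 genes were called higher and 3.92% lower, or 6.84% in either direction. On the log2(FPKM + 1) scale, the median difference of the measured members was -2.89 in the large against the lower library, beside 0.00 for all measured genes. It was -4.06 beside 0.00 in the large against the upper library, and -0.70 beside 0.03 in the lower against the upper. Comparisons pair up the same 3 libraries and are not independent of each other. Scaling all libraries to an equal summed FPKM moved the median of all genes to 0.28 in the large against the lower library, to 0.37 in the large against the upper and to 0.12 in the lower against the upper. The share of called genes that were higher in the large intestine then became 64.0% and not 48.2% against the lower library, and 69.0% and not 49.0% against the upper library.

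**Figure D2:**
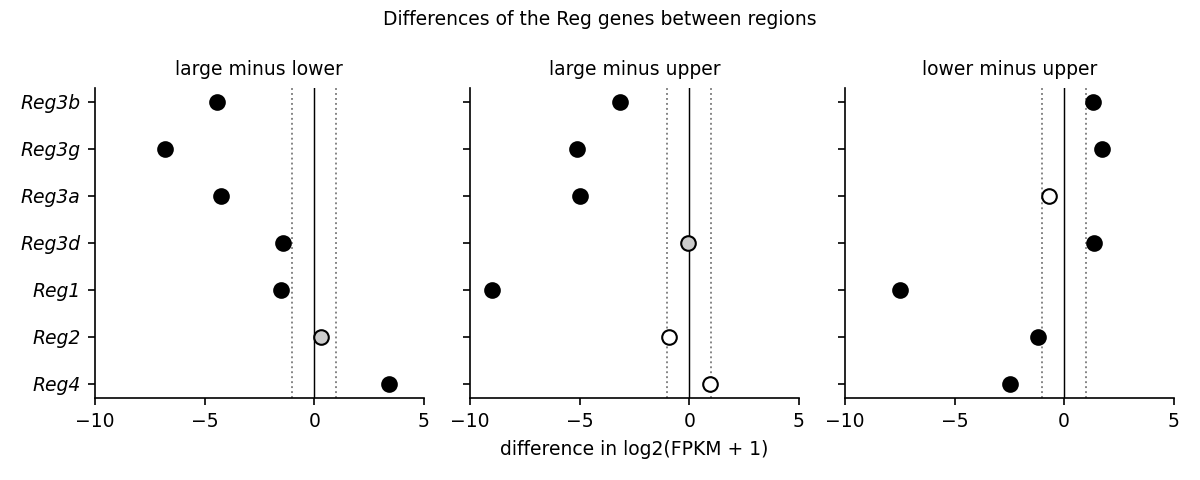
Points give the difference in log2(FPKM + 1) of each Reg gene in the 3 comparisons, filled black where it passed the 2-fold rule (dotted lines at -1 and 1), open where it did not, and grey where the gene was below 1 FPKM in both libraries. Reg4 lies to the right of 0 in both comparisons of the large intestine, whereas Reg3b, Reg3g, Reg3a and Reg1 lie to the left of -1.

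Reg3b, also known as pancreatitis-associated protein, and Reg3g, which binds peptidoglycan and kills Gram-positive bacteria, had the same order of levels over the regions. Reg3b was at 1002 FPKM in the large, 22050 FPKM in the lower and 8893 FPKM in the upper library. Reg3g was at 114 FPKM in the large, 12929 FPKM in the lower and 3945 FPKM in the upper library. Both genes were thus highest in the lower small intestine and lowest in the large intestine. Large intestine had 22.0-fold less Reg3b than the lower small intestine, with a 95% interval of 21.1 to 22.9. Every such interval is a Clopper-Pearson one on the reads that the values imply and covers counting error alone. Reg3g was 113-fold lower (104 to 123) in the same comparison, so its interval lay apart from that of Reg3b. Compared with the upper library, the large library had 8.88-fold less Reg3b (8.51 to 9.26) and 34.5-fold less Reg3g (31.8 to 37.6). In the lower against the upper small intestine, Reg3b was 2.48-fold higher (2.44 to 2.52) and Reg3g 3.28-fold higher (3.22 to 3.33).

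The balance between these lectins therefore differed between the 3 libraries. Per length, Reg3b exceeded Reg3g by 8.77-fold in the large library, 1.71-fold in the lower and 2.25-fold in the upper. As a share of the summed Reg FPKM, Reg3b made up 72.3% (large), 62.9% (lower) and 62.3% (upper), and Reg3g made up 8.25% (large), 36.9% (lower) and 27.6% (upper). In the large library Reg4 took 19.2% of the family and was 2.32 times Reg3g per length. In the upper library Reg1 took 8.40%.

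**Figure D3:**
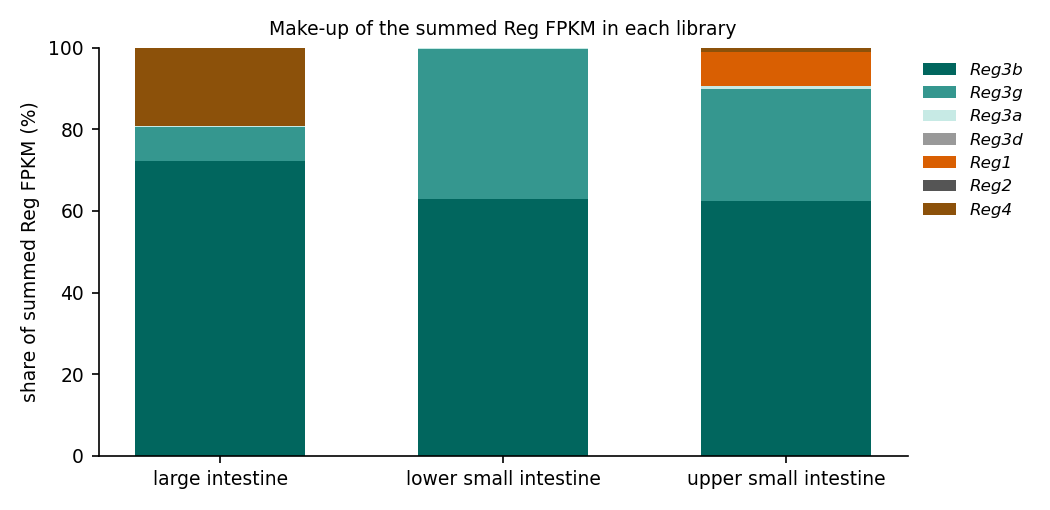
Stacked bars give each member's share, in percent, of the summed Reg FPKM of a library. Reg3b is the main component in all 3 libraries, Reg4 fills 19.2% of the large intestinal bar and Reg1 8.40% of the upper small intestinal bar, while the shares of Reg2 and Reg3d are too small to see.

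Reg3b occupies 78370657 to 78373466 of chromosome 6 (build mm10, plus strand, ENSMUSG00000071356.7) and Reg3g occupies 78466269 to 78468872 (minus strand, ENSMUSG00000030017.2). They are the outermost genes of a cluster of 98.2 kb that also holds Reg3d, Reg3a, Reg2 and Reg1, in that order from Reg3b. All 7 genes are annotated as protein coding. Despite lying at opposite ends, Reg3b and Reg3g had the most alike sequences before their start sites. Over the 250 bases before the start, a global alignment of Reg3b and Reg3g gave 68.4% identity with a longest shared run of 20 bases. The other 20 pairs of family members gave 44.9% to 56.9% identity and runs of 6 to 12 bases. The sequences just before the start sites of this pair, which had the same regional order, are shown from RefSeq (GRCm38.p6, the assembly of mm10), 5′ to 3′ on the strand of the gene. Capitals mark matches to TATAAA, the core of a TATA box, or to TTCNNNGAA, a spacing recognised by STAT dimers, on either strand. The windows before Reg3b here and before Reg1 below lie inside the GENCODE spans of those genes, since RefSeq places both starts further downstream.
Reg3b, chr6:78370710-78370884, plus strand: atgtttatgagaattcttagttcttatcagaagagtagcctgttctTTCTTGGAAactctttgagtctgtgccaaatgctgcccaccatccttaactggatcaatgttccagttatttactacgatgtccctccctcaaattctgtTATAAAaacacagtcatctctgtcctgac
Reg3g, chr6:78468875-78469049, minus strand: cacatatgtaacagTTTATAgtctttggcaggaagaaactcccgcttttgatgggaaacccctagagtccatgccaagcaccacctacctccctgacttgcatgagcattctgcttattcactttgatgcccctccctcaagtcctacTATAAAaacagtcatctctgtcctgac

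Both sequences carry TATAAA close to the start, beginning at base -29 in Reg3b and -27 in Reg3g. Reg3g has another match on the opposite strand, at -161. Reg3b also holds 1 match to TTCNNNGAA, beginning at base -129, and the 250 bases before Reg3g hold none. In the family, 4 of 7 promoters held TATAAA and 2 of 7, those of Reg3b and Reg3d, held TTCNNNGAA. Among 32851 RefSeq promoter windows of the same length, 12.4% held TATAAA and 7.02% held TTCNNNGAA. The motifs do not overlap in these sequences, and a match describes letters and not binding. Over their transcripts, Reg3b and Reg3g were 67.7% identical with a longest shared run of 35 nt, the longest of any pair, against 9 to 24 nt in the other 20 pairs. How reads that fit more than 1 gene were assigned is not given in the sources used here.

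Measured genes of the pathway that induces Reg3b and Reg3g were called about as often as measured genes in general. The cytokine genes Il22, Il17a, Il6 and Il23a were below 1 FPKM in every library, so these counts leave them out. Of 20 listed genes, 14 were measured in the large against the lower small intestine, with 2 higher and 2 lower, or 28.6% called beside 20.2% of all genes. With the upper library as the comparator, 1 of 14 was higher and 2 were lower, or 21.4% beside 22.9%. In the lower against the upper library none of 12 was higher and 1 was lower, or 8.33% beside 6.84%. The list median was -0.14 in the large against the lower library, -0.09 in the large against the upper and 0.13 in the lower against the upper. Il22ra1, the interleukin-22 receptor chain of epithelial cells, was at 9.90 (large), 22.5 (lower) and 18.3 (upper) FPKM, and was called lower in the large against the lower library. Socs3, a feedback inhibitor that STAT3 induces, was at 5.76 (large), 47.4 (lower) and 28.4 (upper) FPKM, and was called lower in the large library in both comparisons. Jak2, a cytokine receptor kinase, was at 21.4 (large), 33.8 (lower) and 45.6 (upper) FPKM and was called lower in the large against the upper library. Tlr4, the receptor for lipopolysaccharide, was called higher in the large library in both comparisons, at 5.33 and 0.508 FPKM in the large and lower libraries and listed at 0 in the upper. Il18, an epithelial cytokine, was at 123 (large), 37.7 (lower) and 131 (upper) FPKM, lowest where Reg3b was highest.

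Genes known to respond to interleukin-22 or STAT3 did not share a single regional pattern. Of 18 listed genes, which include Socs3 and Il18 from the list above, 14 were measured in the large against the lower library, with 4 higher and 8 lower. Against the upper library 4 of 13 were higher and 3 lower. In the lower against the upper library 9 of 15 were higher and 1 was lower, with a list median of 1.30 beside 0.03 for all genes. In that order of comparisons 85.7%, 53.8% and 66.7% of the list were called in either direction, beside 20.2%, 22.9% and 6.84% of all genes. Nos2, the inducible nitric oxide synthase, was at 0.144 (large), 114 (lower) and 11.9 (upper) FPKM. Duoxa2, which matures a peroxide-producing oxidase, was at 3.94 (large), 109 (lower) and 7.16 (upper) FPKM, and its partner Duox2 was at 11.3 (large), 92.1 (lower) and 11.0 (upper) FPKM. These 3 genes were highest in the lower small intestine, as Reg3b and Reg3g were. Fut2, a fucosyltransferase, was at 60.4 (large), 6.98 (lower) and 0.502 (upper) FPKM, and Saa1, an acute-phase protein, at 1328 (large), 337 (lower) and 0.944 (upper) FPKM, so both were highest in the large intestine. Saa3, of the same family as Saa1, was at 5.74 and 1.30 FPKM in the large and lower libraries and listed at 0 in the upper.

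**Figure D4:**
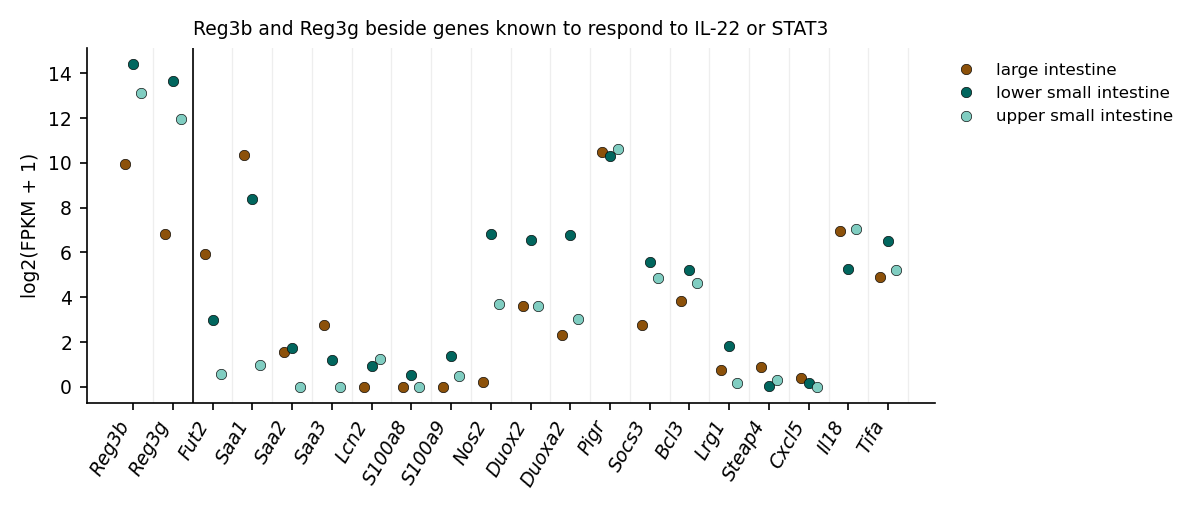
Points give log2(FPKM + 1) of Reg3b and Reg3g, left of the vertical line, and of 18 genes known to respond to interleukin-22 or STAT3, in the 3 libraries. Nos2, Duox2 and Duoxa2 are highest in the lower small intestine, and Fut2 and Saa1 in the large intestine.

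Most marker genes of Paneth cells, which make Reg3 proteins in the small intestine, were lower in the large library. In both comparisons of the large library, 9 of 10 Paneth markers were called lower and 1, Nupr1, was called higher. The list summed to 466 FPKM in the large library, of which Nupr1, a stress-response gene of many cell types, gave 426 FPKM. It summed to 21181 FPKM in the lower and 17603 FPKM in the upper library. In the large library 7 of the 10 were at 1 FPKM or more and 2 were listed at 0, one of them Defa17, an alpha-defensin. Lyz1, the Paneth cell lysozyme, was at 5.26 FPKM there, beside 1002 FPKM of Reg3b. Between the lower and upper libraries 2 of 10 Paneth markers were called higher and none lower, with a list median of 0.31. B and plasma cell markers moved with Reg3b and Reg3g too, with 4 of 4 lower in the large against the lower library, 1 of 1 lower in the large against the upper, and 3 of 4 higher in the lower against the upper. T cell markers were lower in the large library in 5 of 5 and 4 of 4 against the lower and upper libraries, with none of 5 called between the lower and upper libraries. For comparison with these lists, 10.5% of all genes were called lower in the large against the lower library and 11.7% against the upper. In the lower against the upper library 2.92% of all genes were called higher and 3.92% lower. The part of these cells, or of the Paneth and myeloid cells, in the Reg3b and Reg3g differences was not tested.

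Other secreted antibacterial proteins were divided in the large intestine. Of 20 listed, of which Lyz1, Pla2g2a, Ang4 and Mptx2 are also Paneth markers, 17 were measured in the large against the lower library, with 7 higher and 5 lower. Against the upper library 9 of 18 were higher and 7 lower. The shares called in either direction were 70.6% and 88.9%, beside 20.2% and 22.9% of all genes. Mptx1, a pentraxin, was at 3341 (large), 2.40 (lower) and 1.69 (upper) FPKM, whereas its relative Mptx2, a Paneth cell product, was at 0.224 (large), 759 (lower) and 736 (upper) FPKM. Itln1, an intelectin that binds microbial sugars, was at 3.396 (large), 1407 (lower) and 1566 (upper) FPKM. Within the small intestine 3 of 16 were higher and none lower in the lower library, or 18.8% called beside 6.84% of all genes. The 3 were Sprr2a3, Retnlb and Pla2g2a. Sprr2a3 was at 104 (large), 20.4 (lower) and 1.95 (upper) FPKM, and so was highest in the large library. Retnlb was highest there too, at 45.4 (large), 4.65 (lower) and 0.514 (upper) FPKM. Pla2g2a, a phospholipase that attacks bacterial membranes, was at 4.84 (large), 71.8 (lower) and 31.7 (upper) FPKM.

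Over the 3 libraries, the genes whose centred log2(FPKM + 1) values lay nearest to those of Reg3b among 7331 others were H2-Aa, Mcpt1 and Ido1, at Euclidean distances of 0.14, 0.19 and 0.25. Candidates had at least 10 FPKM in 1 library and were not short RNAs. H2-Aa, an MHC class II chain, was at 30.1 (large), 615 (lower) and 242 (upper) FPKM. Mcpt1, a mast cell protease, was at 0.266 (large), 32.4 (lower) and 11.3 (upper) FPKM, and Ido1, which degrades tryptophan, was at 0.924 (large), 36.0 (lower) and 12.4 (upper) FPKM. Nearest to Reg3g were Defa5, an alpha-defensin, at 0.512 (large), 222 (lower) and 74.3 (upper) FPKM, Bcl2l15 at 0.206 (large), 193 (lower) and 66.4 (upper) FPKM, and Gm15299, listed at 0 in the large library and at 49.3 and 17.2 FPKM in the lower and upper. Their distances were 0.40, 0.52 and 0.86. Likeness over 3 points is a description of these libraries only.

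Reg3a, a further lectin of the Reg3 group, was small intestinal but not highest in the lower part. It was at 2.08 FPKM in the large, 58.4 FPKM in the lower and 95.2 FPKM in the upper library, for about 12 (large), 430 (lower) and 466 (upper) reads. Large intestine had 28.1-fold less Reg3a (15.5 to 53.3) than the lower small intestine, and 45.8-fold less (25.2 to 86.8) than the upper. Between the lower and upper libraries the ratio was 0.614 (0.537 to 0.701), a difference of -0.70 that did not pass the 2-fold rule. Reg3a thus had the reverse of the order of Reg3b and Reg3g within the small intestine, although it lies in the same cluster at 78380709 to 78383827 (chromosome 6, plus strand, ENSMUSG00000079516.2). Per length it was 378-fold below Reg3b in the lower library and 93.5-fold below it in the upper. The genes nearest to its pattern were Abcg8, a sterol exporter of enterocytes, at 1.44 (large), 43.1 (lower) and 71.9 (upper) FPKM, Slc30a2, a zinc transporter, at 0.14 (large), 19.9 (lower) and 32.5 (upper) FPKM, and Pdzk1, a brush-border scaffold, at 3.63 (large), 87.7 (lower) and 128 (upper) FPKM. Their distances were 0.07, 0.07 and 0.13.

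Reg3d, related to the hamster islet neogenesis protein INGAP, was close to the limit of detection. It was at 0.25 FPKM in the large, 2.34 FPKM in the lower and 0.288 FPKM in the upper library, or about 1 (large), 9 (lower) and 1 (upper) reads. The lower library was thus the highest, and by the rule of size Reg3d was called lower in the large against the lower library and higher in the lower against the upper. Its ratios were 0.107 (0.00332 to 1.05) and 8.14 (0.830 to 262), so both intervals include a ratio of 1. With the longest annotated transcript the value in the lower library implies 16 reads and not 9, and the intervals, 0.00195 to 0.528 and 1.65 to 446, then exclude 1. Whether counting error covers these differences therefore depends on the transcript length assumed. Reg3d sits between Reg3b and Reg3a at 78375874 to 78378865 (minus strand, ENSMUSG00000068341.8), with gaps of 2.4 kb and 1.8 kb to these neighbours.

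Reg1, a lectin of the exocrine pancreas also known as pancreatic stone protein, showed the largest regional ratios in the family. It was at 1.36 FPKM in the large, 5.69 FPKM in the lower and 1199 FPKM in the upper library, for about 7 (large), 38 (lower) and 5310 (upper) reads. Reg1 was thus high in the upper library alone, where it ranked 64 among all genes. Compared with the upper library, Reg1 was 881-fold lower in the large (422 to 2164) and 211-fold lower in the lower library (153 to 297). Between the large and the lower library it was 4.18-fold lower (1.83 to 11.0). Per length, Reg1 was 7.42-fold below Reg3b in the upper library and 3873-fold below it in the lower.

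Reg1 lies at 78422711 to 78428667 (chromosome 6, plus strand, ENSMUSG00000059654.7), 37.6 kb from Reg3g and 14.6 kb from Reg2. Its sequence before the RefSeq start, shown because Reg1 was the member with the largest regional ratio, holds TATAAA beginning at base -30 and no match to TTCNNNGAA. The stretch shown for Reg1 covers bases -175 to -24 and so stops short of the start, whereas those of the other genes end at base -1.
Reg1, chr6:78425808-78425959, plus strand: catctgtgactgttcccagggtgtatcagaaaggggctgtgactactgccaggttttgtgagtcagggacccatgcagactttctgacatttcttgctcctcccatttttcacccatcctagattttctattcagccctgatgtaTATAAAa

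Reg2, which is co-expressed with Reg1 in the exocrine pancreas, stayed near 0 in all 3 libraries. It was at 0.225 FPKM in the large library, was listed at 0 in the lower and was at 1.30 FPKM in the upper, or about 1 (large), 0 (lower) and 5 (upper) reads. A count of 3 reads would correspond to 0.677 (large), 0.516 (lower) and 0.776 (upper) FPKM for this gene, so only the upper value lies above that limit. Reg2 was called lower in the lower against the upper library by the rule of size. It was not called in the large against the upper, where the ratio of 0.174 (0.00369 to 1.56) has an interval that includes 1. In the upper library Reg1 exceeded Reg2 925-fold per length. The transcripts of Reg1 and Reg2 were 67.7% identical with a longest shared run of 19 nt. Reg2 lies at 78395623 to 78408106 (chromosome 6, plus strand, ENSMUSG00000023140.4).

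Because Reg1 and Reg2 are abundant in pancreatic acinar cells, markers of those cells were set beside them. Of 20 listed acinar genes, 2 were at 1 FPKM or more in the large, 3 in the lower and 15 in the upper library. Listed at 0 were 15 in the large, 14 in the lower and 4 in the upper library. The list summed to 257 FPKM in the large, 140 FPKM in the lower and 314 FPKM in the upper library, and in each most of it came from Cela1 and Clps. Cela1, an elastase also expressed outside the pancreas, was at 227 (large), 5.71 (lower) and 12.9 (upper) FPKM, and Clps, the colipase gene, at 28.2 (large), 132 (lower) and 221 (upper) FPKM. The other 18 markers, a split made after their values were seen, summed to 1.71 (large), 2.44 (lower) and 79.7 (upper) FPKM. They were therefore highest in the same library as Reg1, with Ctrb1, a chymotrypsinogen, the highest of them at 15.5 FPKM and Cela2a, another elastase, at 13.4 FPKM. In the upper library Reg1 was 15.0 times the sum of these 18 genes, of which 13 were at 1 FPKM or more there. The 4 listed at 0 include the acinar regulator Ptf1a and the amylase gene Amy2a5. Of 15 acinar genes measured in the large against the upper library, 13 were called lower and 1, Cela1, was called higher. That was 93.3% called, beside 22.9% of all genes. In the lower against the upper library 13 of 15 were called lower and none higher, or 86.7% beside 6.84%. Most of these genes counted as measured through their upper values alone. The part of pancreatic RNA in the Reg1 level was not tested.

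**Figure D5:**
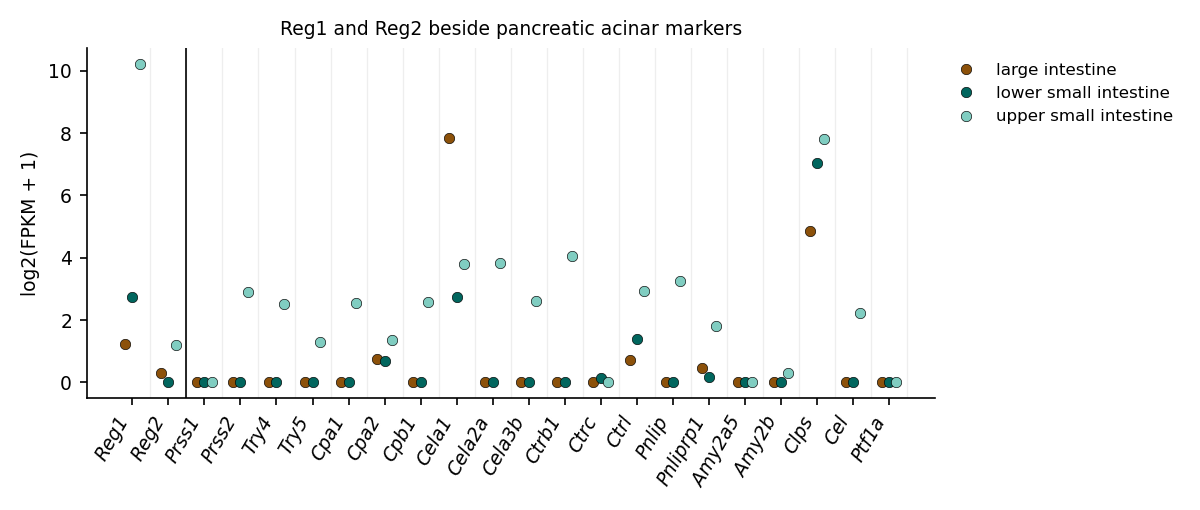
Points give log2(FPKM + 1) of Reg1 and Reg2, left of the vertical line, and of 20 pancreatic acinar markers in the 3 libraries. In the upper small intestine Reg1, at 1199 FPKM, lies above every acinar marker shown, of which Clps is the highest at 221 FPKM.

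The genes nearest to the pattern of Reg1 were upper small intestinal as well. Akp3, an intestinal alkaline phosphatase, was at 0.074 (large), 1.08 (lower) and 286 (upper) FPKM, at a distance of 0.66. Gm766 was listed at 0 in the large library and was at 0.531 and 131 FPKM in the lower and upper, at a distance of 1.38. Cyp3a11, a drug-metabolising cytochrome, was at 0.059 (large), 11.8 (lower) and 379.5 (upper) FPKM, at a distance of 1.94. Small intestinal enterocyte markers as a list were also higher in the upper library, with 6 of 9 lower and none higher in the lower against the upper small intestine. That was 66.7% called, beside 6.84% of all genes.

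Reg4, which marks secretory cells at the base of colon crypts and whose human protein binds sugars without calcium, was the member with its highest level in the large intestine. It was at 265 FPKM in the large, 24.0 FPKM in the lower and 136 FPKM in the upper library, for about 1966 (large), 233 (lower) and 882 (upper) reads. The lower small intestine, where Reg3b and Reg3g peaked, thus held the least Reg4. Large intestine had 11.1-fold more Reg4 (9.66 to 12.7) than the lower small intestine. In the large against the upper library the ratio was 1.95 (1.80 to 2.11), and the difference of 0.95 fell just short of the 2-fold rule. That difference was 1.36 when the libraries were rescaled to the same sum, beside a median of 0.37 for all genes under that scaling. Reg4 in the lower library was 5.69-fold below its level in the upper (4.92 to 6.60).

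Reg4 is also the only member outside the cluster, on chromosome 3 at 98222156 to 98236748 (plus strand, ENSMUSG00000027876.4). The sequence before its start, shown as that of the member with the opposite regional order to Reg3g, holds neither TATAAA nor TTCNNNGAA.
Reg4, chr3:98221981-98222155, plus strand: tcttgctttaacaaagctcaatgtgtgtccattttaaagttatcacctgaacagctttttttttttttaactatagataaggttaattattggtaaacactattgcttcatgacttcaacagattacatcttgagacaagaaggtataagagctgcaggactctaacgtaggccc

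Markers of the cell types in which Reg4 is known did not all follow its order. In the large against the lower library 3 of 10 goblet markers passed as higher and 1 as lower, and in the large against the upper library 6 passed as higher and none as lower. Where Reg4 was lower, in the lower against the upper library, 3 goblet markers were higher and none lower. In that order of comparisons 4, 6 and 3 of 10 goblet markers were called, beside 20.2%, 22.9% and 6.84% of all genes. The goblet list summed to 10954 (large), 10201 (lower) and 7697 (upper) FPKM. Muc2, the main secreted mucin, was at 1128 (large), 329.6 (lower) and 151 (upper) FPKM, and Klk1, a kallikrein, at 1197 (large), 77.5 (lower) and 48.7 (upper) FPKM. Other goblet markers had another order. Tff3, a trefoil peptide, was at 992 (large), 2215 (lower) and 1835 (upper) FPKM and was called lower in the large against the lower library. Spink4 was at 1335 (large), 2215 (lower) and 1333 (upper) FPKM, and Fcgbp, a mucus protein, at 421 (large), 641 (lower) and 603 (upper) FPKM. Enteroendocrine markers summed to 316 (large), 286 (lower) and 574 (upper) FPKM, lowest in the lower library as Reg4 was. Their median level did not have that order, at 6.785 (large), 25.0 (lower) and 42.2 (upper) FPKM. In the large against the lower library 2 of 11 were called higher and 5 lower. In the large against the upper library 1 of 12 was called higher and 4 lower, and the same counts were found in the lower against the upper library. In that order of comparisons 63.6%, 41.7% and 41.7% of enteroendocrine markers were called, beside the shares of all genes given above. Tph1, which makes serotonin in enterochromaffin cells, was at 7.16 (large), 2.44 (lower) and 6.97 (upper) FPKM. Pyy was at 108 (large), 28.9 (lower) and 3.02 (upper) FPKM. Others, Pax6 and Tac1 among them, were lowest in the large library. Cck was at 1.58 (large), 9.95 (lower) and 62.2 (upper) FPKM, and Sst at 6.415 (large), 28.8 (lower) and 49.8 (upper) FPKM. Sct was at 21.9 (large), 54.2 (lower) and 97.5 (upper) FPKM. Gip, a hormone of the proximal gut, was listed at 0 in the large library and was at 21.2 and 151 FPKM in the lower and upper. The part of these cell types in the Reg4 differences was not tested. The genes nearest to the pattern of Reg4 were Marcksl1-ps4, a pseudogene by name, at 56.7 (large), 5.74 (lower) and 28.9 (upper) FPKM, Gstm1, a glutathione transferase, at 212 (large), 14.5 (lower) and 105 (upper) FPKM, and Slc9a3, a sodium-proton exchanger, at 58.7 (large), 8.32 (lower) and 34.1 (upper) FPKM. Their distances were 0.26, 0.28 and 0.54.

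Receptors proposed for Reg proteins were at similar levels. Extl3, proposed as a receptor for Reg proteins, was at 6.84 (large), 4.37 (lower) and 3.98 (upper) FPKM, and Egfr, linked to REG4 signalling in human tumour cells, was at 7.14 (large), 6.08 (lower) and 6.13 (upper) FPKM. Both stayed within the 2-fold rule in the 3 comparisons.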

How the data were processed

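RNeasy columns and a stranded mRNA library kit were used, per the labels' protocols. The deposited files give 1 value per gene, taken as FPKM: the headers name no unit, and no quantifier other than Cufflinks 2.2.1 is listed, per the submitters' processing notes. TopHat2 2.0.13, Bowtie2 2.2.3, SAMtools 0.1.19 and build mm10 are also named there, without roles. The annotation, the strand setting and any scaling between libraries were not given in the sources used here. A value of exactly 0 can be a failed estimate and is worded as listed at 0.

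Of 24346 names, 23310 matched GENCODE M21, which gave coordinates and transcript lengths. Genes with a single transcript of 600 nt or longer were used to recover reads: their FPKM times transcript length less 210 nt fell near whole multiples of 0.1095, 0.0835 and 0.1255 (large, lower, upper). The share within 0.15 read of a whole number was 78.9% of 570 genes (large), 80.0% of 586 (lower) and 79.9% of 597 (upper), and with full length 58.0%, 60.4% and 59.0%. Steps and the length were fitted to these values. Recovery was too incomplete for a count test. Reads per gene use the shortest annotated transcript, and intervals on ratios are Clopper-Pearson at the 95% level. They cover counting error alone, since the reads carry no molecular identifiers and may be copies.

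Differences are log2(FPKM + 1) of the library named first less that of the other; low genes are understated on this scale. The 7 members, the 19 other lists, and the rules were chosen with earlier results of these data known. Named genes were all members, the 3 nearest to each member at 10 FPKM or more, and up to 4 of largest difference per list and comparison; other marker genes were named after their values were seen. The calling rule, the intervals and the read recovery were tested on simulated data. Alignments used Biopython 1.88, and other steps pandas 2.3.3 and SciPy 1.17.1. Promoters are RefSeq's. Protein sequences were not used here.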

Additional observations from a re-analysis of the deposited data

How the results depend on the processing

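With 1 library per region, no replicate could be left out. No paired analysis was possible because each region has 1 library. Of 21 member differences, 20 kept their sign under the pseudocounts of 0.1 and 5 FPKM and both rescalings; the exception, Reg3d in the large against the upper library, ranged from -0.15 to 0.04 around -0.04 and was never called. The counts of all genes called, 2505, 2828 and 817 for large against lower, large against upper and lower against upper, became 1293, 1531 and 446 with a pseudocount of 5 FPKM and 1240, 1454 and 360 with a 3-fold rule. The 6 Reg genes called in the lower against the upper library became 3 with the 3-fold rule, Reg1, Reg4 and Reg3g. The counts of Reg genes called in each comparison stayed within 1.5 times under the other alternatives, a limit that a fall from 6 to 4 just meets. Such a fall occurred in the large against the lower library with the pseudocount of 5 FPKM and with the 3-fold rule. It also occurred in the lower against the upper library with that pseudocount and with a filter of 5 FPKM. With that pseudocount the calls of Reg1 and Reg3d were lost in the former, and those of Reg2 and Reg3d in the latter. Reg4 was called higher in the large against the upper library only under the 2 rescalings, and Reg2 was called lower there only with the pseudocount of 0.1 FPKM. Reg2 rests on at most 5 implied reads in any library and Reg1 on 7, or 9 with the longest annotated transcript, in the large one. With that transcript, the implied reads in the lower library are 151313 and not 69979 for Reg3b, 290934 and not 86862 for Reg3g, and 16 and not 9 for Reg3d. Of the 21 ratio intervals, those of Reg3d with the lower library included 1 with the shortest transcript alone.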
